A study of Ambystoma mexicanum with 8 samples.

Results

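Mast cell or basophil-like cells of the axolotl limb (Ambystoma mexicanum) were taken as cells with at least 500 genes in which at least 3 different symbols of a mast cell set had a UMI. The set named CPA3, KIT, HDC, GATA2, MS4A2, FCER1A and HPGDS, of which the first 4 stand in the gene list, so a cell needed 3 of 4. A cell also had to have fewer than 3 of the endothelial symbols VWF, CDH5, KDR, TEK, EGFL7 and TIE1, under 1% of its UMIs in COL1A1, COL1A2, COL3A1, DCN and LUM together, and under 1% in KRT5, KRT12, KRT15 and KRT76 together. The cells were thus chosen by their UMI counts of these genes, where a UMI is a tag that lets copies of 1 captured molecule be counted once. In all, 259 cells met the rule, or 0.765% of the 33860 cells with at least 500 genes (exact 95% Clopper-Pearson interval 0.675 to 0.864, counting error only). Of these, 203 came from Contra and 56 from Intact libraries, out of 22938 and 10922 cells.

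The cells come from 4 Contra and 4 Intact libraries of wild-type limb tissue. Contra was taken for the systemically activated limbs collected 14 days after an amputation, and Intact for homeostatic limbs. The meaning of Contra is not written out in the labels, which give neither age nor the number of animals behind a library. A p-value here measures the spread between libraries, which may be technical. Every library, in both groups, holds live cells that were sorted for a 4C DNA content, the content of a diploid cell that has copied its DNA, and that were then put through a 3' droplet protocol.

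Mast cells and basophils are granule-bearing white blood cells of the myeloid lineage. They store histamine, proteases and other mediators on a scaffold of proteoglycan, and release them within moments when antibody-loaded or other receptors are engaged. Mast cells mature and persist in tissues such as the skin under the control of the receptor KIT and its ligand, while basophils mostly circulate in blood. The title of the series places the work in the body-wide response to limb loss and its adrenergic control.

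The cells were deep. They held a median of 18149 UMIs (interquartile range 6296 to 30102) and 4391 genes per cell, against 9150 UMIs and 3221 genes in all other cells. The median depth of the cells differed between libraries. It was 11777, 4596, 24158 and 25085 UMIs in Contra 1, 2, 3 and 5, and 7372.5, 25800, 6730 and 6192 UMIs in Intact 1, 3, 4 and 5. The summed UMIs of the cells ranged from 112616 to 2805359 in the Contra libraries and from 12384 to 1053601 in the Intact libraries, so Contra 3 and Intact 3 carry most of the data of their group. No barcode of the cells occurs in another library, although 135 barcodes of the matrix occur in more than 1.

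The 4 symbols of the rule describe the cells and were not tested, since they chose them. CPA3, the carboxypeptidase of mast cell granules, had a UMI in 259 of 259 cells and a median of 169 UMIs per cell, and 93.2% of all its UMIs in the kept cells lay in these cells. KIT, the receptor for stem cell factor, was also found in 259 cells, with a median of 51 UMIs. HDC, the enzyme that makes histamine, was found in 257 cells with a median of 30 UMIs, and GATA2, a transcription factor of mast cell and basophil precursors, in 207 cells with a median of 3. Summed over the cells, CPA3 stood at 9035 CPM (UMIs of a gene scaled to a common total), KIT at 3156, HDC at 2698 and GATA2 at 247 CPM, against 8.74, 4.29, 3.14 and 2.99 CPM in all other cells. GATA2 was the least confined of the 4, with 52.3% of its UMIs in these cells. The matrix counts 3' ends, so that these levels do not scale with the length of a transcript.

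By library, CPA3 stood at 8634, 9199.9, 8676 and 12387 CPM in the cells of Contra 1, 2, 3 and 5, and at 8583, 10283, 2838 and 5168 CPM in those of Intact 1, 3, 4 and 5. KIT stood at 3412, 3809.7, 3345 and 3081 CPM in the Contra libraries, and at 4219, 2239.9, 3345 and 4522 CPM in the Intact libraries. HDC stood at 2994, 1974, 2843 and 1776 CPM in the Contra libraries, and at 4032, 2330.1, 1014 and 2584 CPM in the Intact libraries. The groups overlapped for each of these 3 genes, Contra 5 was the highest and Intact 4 the lowest for CPA3, and the last 2 Intact libraries hold only 5 and 2 cells.

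Of the 259 cells, 205 had all 4 symbols and 54 had 3. Just outside the threshold, 20 cells had 2 of the 4 symbols and met the other limits. The share of a cell's UMIs in 3 identifiers that lead the cells, described next, had a median of 27.7% in cells with 4 symbols, 17.1% in cells with 3 and 0.00827% in cells with 2, of which 7 passed 1%. The 3 identifiers were picked as the most abundant in the 259 cells, so this share is no separate check of the threshold. The cells with 4 symbols were deeper, with a median of 23738 UMIs against 4338 in cells with 3 and 9213 in cells with 2. Another 48 cells had at least 3 symbols but lay past a limit, 38 of them on collagen and related genes, 15 on endothelial symbols and 11 on keratins. Of those 48, 27 came from Contra 5, against 1, 2 and 11 from Contra 1, 2 and 3 and 7 from Intact 3. The 27 cells of Contra 5 had a median of 1.81% of UMIs in the 3 leading identifiers and 3.36% in the collagen set.

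Transcripts annotated as proteases took up a large part of the RNA captured from the cells. CTSV (AMEX60DD007096) and CTSS (AMEX60DD007394), annotated as lysosomal cathepsins, held 13.2% and 11.2% of all UMIs in the cells, against 0.0120% and 0.00978% in all other cells. An identifier without a symbol, AMEX60DD013798, held another 2.33%, against 0.00261% in all other cells. These 3 identifiers were the most abundant of the cells, and their symbols follow the gene list of the authors. The protein sequences were not used here, so that it was not checked which vertebrate protein each one matches best.

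Per cell, the 3 identifiers together had a median share of 26.4, 27.0, 26.8 and 35.3% of UMIs in Contra 1, 2, 3 and 5, and of 15.6, 28.9, 5.27 and 17.3% in Intact 1, 3, 4 and 5. Contra 5 was the highest and Intact 4 the lowest, each with 5 cells. Outside the cells the same identifiers held between 0.000984 and 0.0400% of the UMIs of a library, lowest in Intact 5 and highest in Intact 3, and 4.59 to 57.7% of the other cells had a UMI of them. Because these identifiers take up so much of each sum, the CPM of every other gene in the cells is lower than it would be without them. Over the 8374 identifiers with at least 20 CPM in either sum, the median log2 ratio of the cells to all other cells was -0.29.

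Identifiers were ranked by their mean log2 ratio over the 7 libraries with at least 5 cells, on the log2(CPM + 10) scale. Only identifiers with a symbol and with a UMI in the cells of all 7 libraries were ranked, and the first 25 were taken. Of all 8374 identifiers, 3.39% were at least 4-fold higher in the cells on this scale and 9.58% at least 4-fold lower. After the cathepsins, the largest ratios of the 25 were those of CPA3 (AMEX60DD001958, 8.82 ± 0.60, SD, n = 7 libraries), KIT (7.91 ± 0.45), RGS13 (7.24 ± 0.31) and HDC (AMEX60DD003594, 6.94 ± 0.95). AMEX60DD013798, not ranked because it has no symbol, had 9.72 ± 0.90, above CPA3. RGS13, which damps signalling from G protein-coupled receptors and is known from mast cells, was not part of the rule. A second identifier each of CPA3 (AMEX60DD001959, 6.54 ± 0.50) and HDC (AMEX60DD003593, 6.07 ± 0.28) followed, and UMIs may be split between such copies. Exocytosis genes were among the 25: both identifiers of UNC13D, which primes cytotoxic and mast cell granules for release, had 6.03 ± 0.48 and 4.99 ± 0.58, and STX11, a syntaxin of the same step, had 5.10 ± 0.21. General white blood cell genes were also there, with LAPTM5 at 6.37 ± 0.47, RAC2 at 5.20 ± 0.79 and SPN at 5.36 ± 0.56. The other general white blood cell genes went both ways. ARHGDIB stood at 1804 CPM in the cells and 201 CPM in all other cells, LCP1 at 837 against 26.6 CPM and PTPN6 at 305 against 10.2 CPM. PTPRC stood at 13.4 CPM in the cells and 12.8 CPM in all other cells, ITGB2 at 10.1 against 15.4 CPM and IKZF1 at 0.194 against 1.44 CPM. In macrophage marker cells PTPRC stood at 233 CPM, and in T cell marker cells at 450.4 CPM. LCP1 stood at 516 CPM in macrophage and 512 CPM in T cell marker cells. T cell marker cells also carried UNC13D (AMEX60DD030851) at 435 CPM and SPN at 456 CPM, against 2164 and 769 CPM in the cells. OPRK1, the kappa opioid receptor, stood at 5.89 ± 0.77 and RTBDN at 6.13 ± 0.91.

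**Figure D1:**
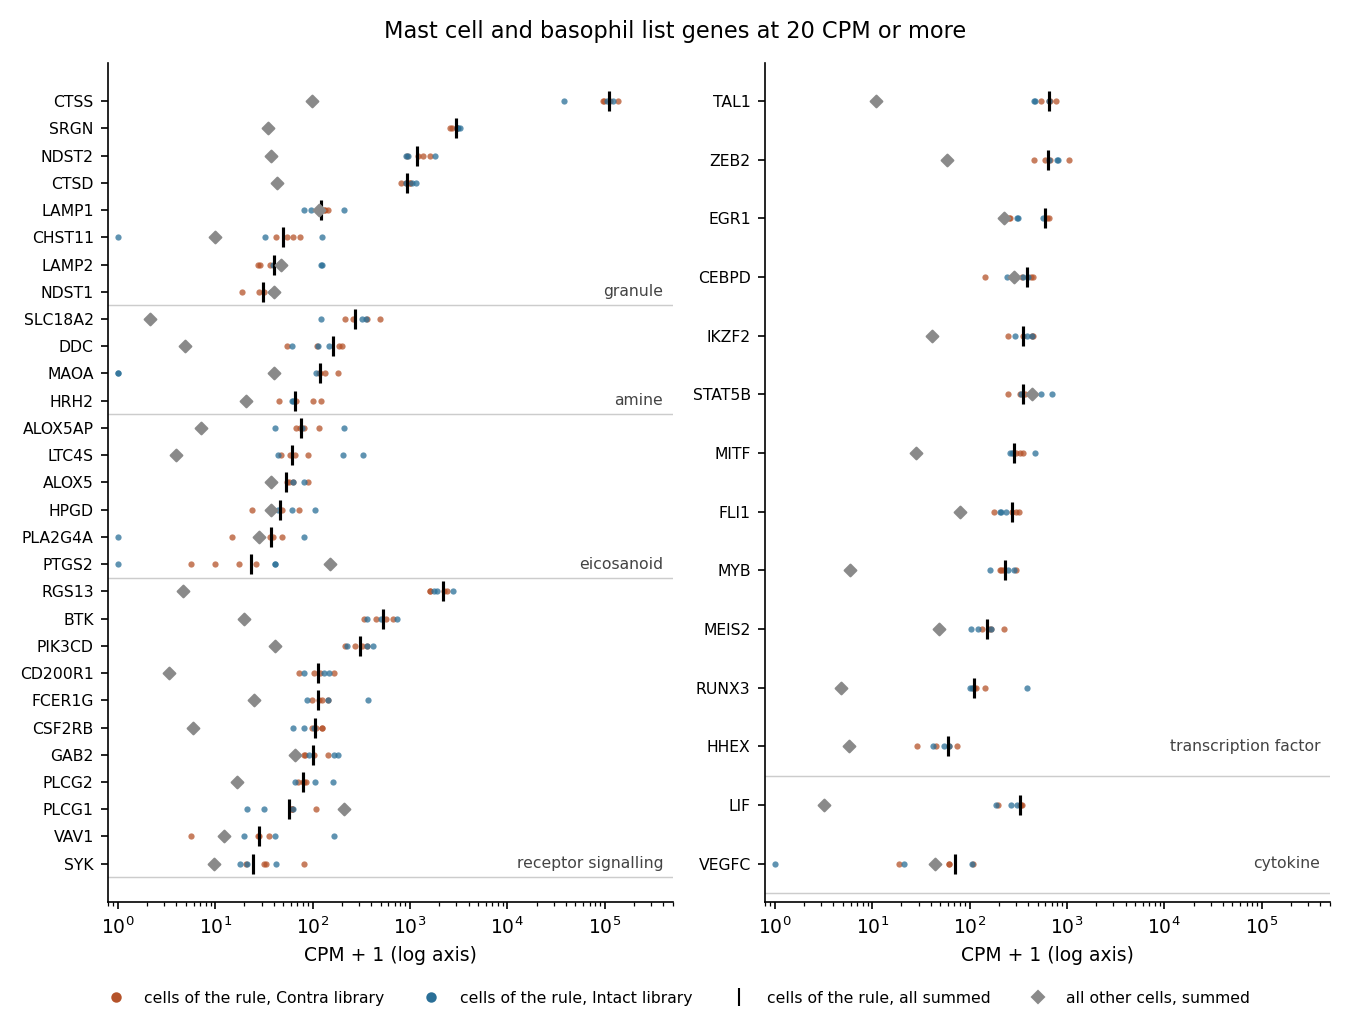
Levels of genes from 6 role lists that reached 20 CPM in the summed cells, as CPM + 1 on a log axis. Small points are the cells of the rule in each of 7 libraries, 4 Contra and 3 Intact, the black bar is the sum over all cells of the rule, and the grey diamond is the sum over all other cells. CTSS, SRGN, SLC18A2, RGS13, TAL1 and LIF lie far right of the diamond in every library, while LAMP1, NDST1, HPGD and STAT5B lie near it and PTGS2 and PLCG1 lie left of it.

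Of the granule list, 13 of 23 symbols are in the gene list and 9 reached 20 CPM in either sum, the filter behind the 8374 identifiers. Of these 9, 4 were at least 4-fold higher in the cells and 1, CTSL, at least 4-fold lower, against 3.39% and 9.58% of all identifiers. The median log2 ratio of the 9 was 1.61, against -0.29 over all identifiers. Over all 13 symbols present, with no filter, it was -0.22. A symbol can pass this filter through its level in the cells alone, which also holds for the lists below. SRGN, the core protein of granule proteoglycan, stood at 2952 CPM in the cells and at 34.2 CPM in all other cells. By library it varied little, at 2695, 2586, 3022 and 3019 CPM in Contra 1, 2, 3 and 5 and at 3242, 3034, 3122 and 1938 CPM in Intact 1, 3, 4 and 5. NDST2, which sulphates the heparin of mast cell granules, stood at 1189 against 36.6 CPM, while NDST1, its counterpart in most tissues, stood at 30.2 against 38.9 CPM. CTSD stood at 933 against 42.1 CPM, but at 487 CPM in T cell and 278 CPM in macrophage marker cells. CD63, also of this list, stood at 5.42 against 15.5 CPM. The lysosomal membrane proteins LAMP1 (122 against 116 CPM) and LAMP2 (38.9 against 46.9 CPM) were near the level of other cells. TPSAB1, TPSB2, CMA1 and CTSG, the tryptases, chymase and cathepsin G of mammalian mast cells, have no entry under these symbols in the gene list and were not analysed here.

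Of the 9 amine handling symbols present, 5 reached 20 CPM in either sum. Of these 5, 2 were at least 4-fold higher in the cells and none at least 4-fold lower, against 3.39% and 9.58% of all identifiers. Their median log2 ratio was 1.37, against -0.29 over all identifiers. Over all 9, with no filter, the median was 0.18. SLC18A2, the vesicular monoamine transporter that loads histamine and serotonin into granules, stood at 359, 259.5, 214 and 497 CPM in Contra 1, 2, 3 and 5 and at 353, 322, 122 and 404 CPM in Intact 1, 3, 4 and 5, against 1.14 CPM in all other cells. Every library was far above the other cells, and the groups overlapped. DDC, which makes serotonin and dopamine from their precursors, stood at 161 against 3.91 CPM. The breakdown enzyme MAOA stood at 118 against 39.4 CPM, and the histamine receptor HRH2 at 64.8 against 19.6 CPM. Both were higher still in macrophage marker cells, at 153.6 and 83.6 CPM. TPH1, the first enzyme of serotonin synthesis, stood at 2.90 against 1.68 CPM, SLC18A1, the other vesicular transporter, at 1.74 against 0.359 CPM, and HNMT, which inactivates histamine, at 2.90 against 32.7 CPM.

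Lipid mediator genes went both ways. LTC4S (60.6 against 3.01 CPM), which joins glutathione to make leukotriene C4, and ALOX5AP (74.3 against 6.18 CPM), which presents the substrate to the lipoxygenase, were higher in the cells. ALOX5 itself, summed over 10 identifiers, stood at 52.8 against 36.5 CPM. It was higher in macrophage and T cell marker cells, at 119.7 and 120.9 CPM. LTA4H, which makes leukotriene B4, stood at 6.58 against 54.3 CPM and the leukotriene receptor CYSLTR1 at 1.74 against 20.8 CPM. The prostaglandin synthases were lower, with PTGS2 at 22.3 against 149 CPM, PTGS1 at 10.1 against 51.6 CPM and PTGES at 1.35 against 47.4 CPM. Of the 10 list symbols at 20 CPM in either sum, 2 were at least 4-fold higher and 2 at least 4-fold lower. The shares over all identifiers were 3.39% and 9.58%. The median log2 ratio of the 10 was -0.57, and over all 12 symbols present, with no filter, it was -0.51.

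Among receptors and their signalling partners, 21 symbols are present, with a median log2 ratio of 0.44, and 14 reached 20 CPM in either sum. The median log2 ratio of these 14 was 1.30. Of the 14, 5 were at least 4-fold higher in the cells and none at least 4-fold lower, against 3.39% and 9.58% of all identifiers. The 5 include RGS13 at 2206 against 3.64 CPM, the kinase BTK at 531 against 18.8 CPM and the receptor CD200R1 at 114 against 2.34 CPM. They also include CSF2RB, the shared receptor chain for IL-3, IL-5 and GM-CSF, at 105 against 4.93 CPM. PIK3CD, a leukocyte PI 3-kinase, stood at 303 against 39.8 CPM, and at 435 CPM in T cell marker cells. FCER1G, the signalling chain of the IgE receptor and of other Fc receptors, stood at 114 against 24.0 CPM, PLCG2 at 78.0 against 15.9 CPM and SYK at 23.2 against 8.67 CPM. Macrophage marker cells also carried several of these genes, with CSF2RB at 98.3, FCER1G at 71.4, PLCG2 at 108 and SYK at 91.2 CPM. Other signalling partners of the list were lower in the cells. PLCG1 stood at 55.9 against 210 CPM, LYN at 19.6 against 42.8 CPM and FYN at 6.19 against 30.6 CPM. IL1RL1 and ENPP3, which mark mammalian mast cells and basophils, were near 0, at 0.968 and 1.16 CPM. MS4A2 and FCER1A, the other chains of the IgE receptor, have no entry in the gene list.

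The 30 transcription factor symbols present had a median log2 ratio of -0.08, and 16 of them reached 20 CPM in either sum. Of these 16, 7 were at least 4-fold higher in the cells and 1, LMO4, at least 4-fold lower, with a median log2 ratio of 1.56, against 3.39%, 9.58% and -0.29 over all identifiers. TAL1, a factor of blood stem cells and of the erythroid, megakaryocyte and mast cell lineages, stood at 654, 547, 674 and 773 CPM in Contra 1, 2, 3 and 5 and at 457, 657, 466 and 1373 CPM in Intact 1, 3, 4 and 5. It stood at 9.90 CPM in all other cells, at 1.93 CPM in macrophage marker cells and at 95.1 CPM in erythroid marker cells. The higher factors also include MITF, a factor of mast cells and pigment cells, at 288 against 27.0 CPM, MYB, of blood progenitors, at 232 against 4.86 CPM, and ZEB2 at 637 against 57.8 CPM. RUNX3 stood at 109.8 against 3.78 CPM, IKZF2 at 355 against 40.4 CPM and HHEX at 59.6 against 4.81 CPM. Macrophage marker cells also had MITF, at 216 CPM, and T cell marker cells had RUNX3, at 142 CPM. LYL1, a relative of TAL1, stood at 1.94 against 15.6 CPM. Further listed factors were lower in the cells as well. RUNX1 stood at 3.29 against 19.3 CPM, MEIS1 at 16.5 against 50.3 CPM and LMO2 at 3.87 against 11.4 CPM. SPI1 stood at 0.194 against 4.50 CPM, and at 119 CPM in macrophage marker cells. CEBPA stood at 0.194 against 3.01 CPM.

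LIF led the cytokine list. This cytokine of the IL-6 family stood at 331, 334, 341 and 195 CPM in Contra 1, 2, 3 and 5 and at 187, 305, 264 and 242 CPM in Intact 1, 3, 4 and 5, against 2.18 CPM in all other cells and 1.47 CPM in macrophage marker cells. The groups overlapped. VEGFC, a growth factor of lymphatic vessels, stood at 70.1 against 43.7 CPM. Of the 14 cytokine symbols present, LIF and VEGFC alone reached 20 CPM in the cells. Of the 4 at 20 CPM in either sum, 1 was at least 4-fold higher and 1, IL1B, at least 4-fold lower. The shares over all identifiers were 3.39% and 9.58%. The median log2 ratio of the 4 was -0.56, and over all 14 symbols present, with no filter, it was -0.52.

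To set these genes beside the background of free RNA, 2000 UMIs were drawn from each cell with at least that many. Of 242 cells of the rule, 97.5% then had a UMI of RGS13, 97.1% of SRGN, 58.3% of TAL1, 43.8% of MITF, 40.1% of SLC18A2, 37.2% of LIF and 11.6% of LTC4S. In 7320 epidermal cells, taken as cells with at least 1% of UMIs in the keratins of the rule, the shares for the same genes were 0.410%, 1.24%, 0.437%, 0.724%, 0.0683%, 0.123% and 0.642%. Median depth before the draw was 19836.5 UMIs in the cells and 5371 UMIs in the epidermal cells. Each of these 7 shares lay above that of the epidermal cells at equal depth. In 711 macrophage marker cells the 7 shares were 2.39%, 35.9%, 0.141%, 23.5%, 0.281%, 0.141% and 0.563%, so SRGN and MITF were also common there. Other listed genes were found less often in the cells than in the epidermal cells, such as LYN (5.79% against 11.7%), NDST1 (5.79% against 9.06%), PTGS2 (4.55% against 7.51%) and STAT5B (50.4% against 62.7%).

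The label was checked against 19 markers that the rule did not use, of which 14 are in the gene list. The cells had a median of 8 of the 14, and 227 of 259 had at least 5, or 87.6%, against 2.58% of all other cells. Depth was not made equal for this count, and the cells were deeper, with a median of 18149 UMIs against 9150. Macrophage marker cells were not counted apart. Markers of other blood cells varied by list. The 9 macrophage markers present summed to 42.6 CPM in the cells, between 38.0 and 97.7 CPM in the Contra libraries and between 0 and 187 CPM in the Intact libraries, against 1130 CPM in all other cells. The 7 T cell markers summed to 10.1 CPM, against 17.5 CPM in all other cells. The 5 neutrophil markers summed to 2.71 against 7.52 CPM, with MPO, LTF and CEBPE at 0 in the cells. The 6 thrombocyte markers summed to 288 CPM in the cells and 237 CPM in all other cells, with GP1BA the highest, and the 3 eosinophil markers to 18.8 and 10.2 CPM. The 7 erythroid markers present summed to 29.6 CPM in the cells and 53.0 CPM in all other cells. The 7 pigment cell markers present summed to 7.36 and 7.72 CPM, near the same level. Within these lists HBA1, HBE1 and ALAS2 (erythroid) and TYRP1, PMEL and SOX10 (pigment) were at 0 in the cells. A count of 0 allows up to 0.581 CPM each, the level of 3 counts in the summed cells. Most cells thus carried several markers outside the rule, but not all of the 14 were raised. PTGS1 (10.1 against 51.6 CPM), LYL1 (1.94 against 15.6 CPM) and IL1RL1 (0.968 against 2.18 CPM) were lower in the cells. ENPP3 stood at 1.16 against 0.971 CPM. The thrombocyte genes described next also go against the label. These lists do not separate mast cells from basophils further. Of the short basophil list, 4 of 8 symbols are in the gene list. CSF2RB alone reached 20 CPM, while PRG2 and CEBPA stood at 0.194 CPM each and ITGA2 at 2.13 CPM. Of the tissue mast cell list, 3 of 8 are present, KIT, MITF and SLC18A2, and all reached 20 CPM. KIT was a symbol of the rule, so its level is no check. Macrophage marker cells also had CSF2RB at 98.3 CPM and MITF at 216 CPM, but SLC18A2 at 0.850 CPM.

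Some genes of other blood lineages were high in the cells. CD34, a surface protein of blood progenitors, endothelium and mouse mast cells, stood at 833, 927, 1023 and 844 CPM in Contra 1, 2, 3 and 5 and at 831, 1038, 993 and 888 CPM in Intact 1, 3, 4 and 5, against 79.6 CPM in all other cells. Every library of both groups lay between 831 and 1038 CPM, and the groups overlapped. Of the platelet and thrombocyte list, GP1BA, the von Willebrand factor receptor, stood at 223 against 3.25 CPM and GP9 at 53.4 against 3.82 CPM, while ITGA2B (1.16 against 7.98 CPM) and THBS1 (0.968 against 66.2 CPM) were lower. In all, 27 cells carried at least 3 markers of another blood or pigment list, 19 of them of the thrombocyte list. Of the adrenergic receptors, ADRB1, summed over 3 identifiers, stood at 36.6 CPM against 3.50 CPM in all other cells and was higher than in the other cells in 7 of 7 libraries, on 189 UMIs in all. ADRA1A stood at 10.6 CPM against 17.4 CPM in all other cells, and ADRA1B, ADRA1D, ADRA2A, ADRA2B and ADRA2C were at 2.32 CPM or less in the cells.

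**Figure D2:**
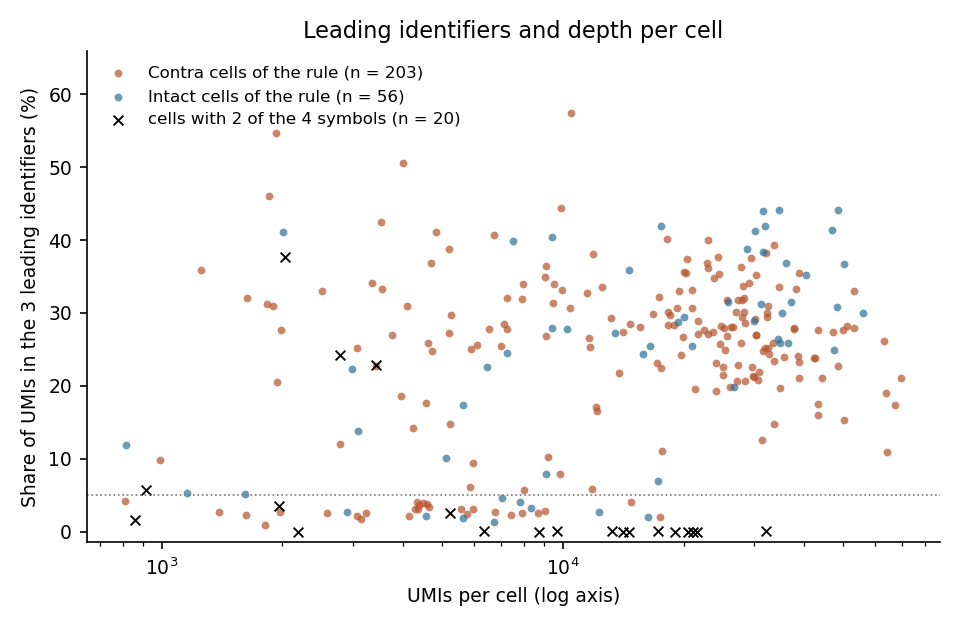
Each point is a cell, placed by its UMIs (log axis) and by the share of its UMIs in the 3 leading identifiers, CTSV, CTSS and AMEX60DD013798. Contra (203) and Intact (56) cells of the rule lie in a broad band, with 36 of the 259 below the dotted line at 5%, and crosses mark the 20 cells with 2 of the 4 symbols.

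The cells were not uniform. A group of 36 had under 5% of UMIs in the 3 leading identifiers, as the plot of leading identifiers against depth shows, a line drawn after these values were seen and given no test. They came from Contra 1 (11 cells), Contra 2 (4), Contra 3 (12), Intact 3 (7) and Intact 4 (2). They were shallower, with a median of 4620.5 UMIs against 21687 in the other 223. Ribosomal protein genes took a median of 0.429% of their UMIs, against 6.97% in the other 223 cells and 4.92% in all other cells. Such low shares also occur outside the cells, since 12.04% of all other cells lay at or below 0.679%, the upper quartile of the 36.

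Mast cell genes differed in how they were carried by the 36 cells. With the 3 leading identifiers left out of the sums, KIT stood at 4065 CPM in the 36 cells and 4322 CPM in the other 223, HDC at 4741 and 3620.2, both symbols of the rule, RGS13 at 4208 and 2941, and CD34 at 1401 and 1339 CPM. MITF (762 and 372 CPM) and SLC18A2 (815 and 341 CPM) were higher in the 36. CPA3 stood at 2068 and 12935 CPM, SRGN at 1525 and 4176, GATA2 at 214 and 345, LIF at 214 and 459, MYB at 129 and 327, TAL1 at 109.6 and 949, GP1BA at 19.1 and 322, and VIM, an intermediate filament protein, at 376 and 9389 CPM. The 2 identifiers of CPA3 differed. AMEX60DD001958 had 26 UMIs in the 36 cells and 41151 in the other 223, while AMEX60DD001959 had 408 and 5089. Depth and the ribosomal share moved with these levels, and their part in them was not tested.

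**Figure D3:**
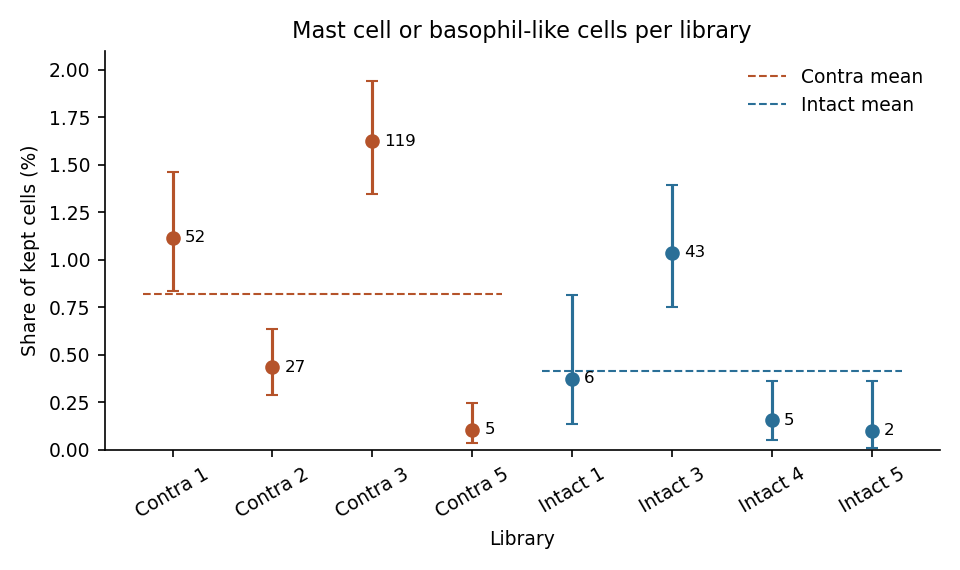
Share of the kept cells of each library that met the rule, in percent, with exact 95% Clopper-Pearson intervals and the number of cells beside each point. Dashed lines are the group means, 0.820% for Contra and 0.418% for Intact, and the libraries of the groups overlap.

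Whether the cells take a different share of the 4C gate in activated limbs was tested over libraries. They made up 1.12, 0.436, 1.62 and 0.105% of the kept cells in Contra 1, 2, 3 and 5, and 0.375, 1.04, 0.156 and 0.101% in Intact 1, 3, 4 and 5. Contra 3, Contra 1 and Intact 3 were high, and Contra 5 and Intact 5 were the lowest. The mean was 0.820 ± 0.681% in Contra and 0.418 ± 0.430% in Intact (SD, n = 4 each), which differ by 0.403 percentage points, within the spread between libraries (exact permutation over libraries, 2-sided, p = 0.257, smallest possible 0.0286). It rested on Contra 3, without which it was 0.135 points. In each group the number 3 library was high, and the difference was 0.664 points between libraries numbered 1 and 3 and 0.142 points between the others. Lifting the limits on endothelial, collagen and keratin genes adds 48 cells, 27 of them from Contra 5. The difference in share was then 0.553 points (exact permutation p = 0.2).

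**Figure D4:**
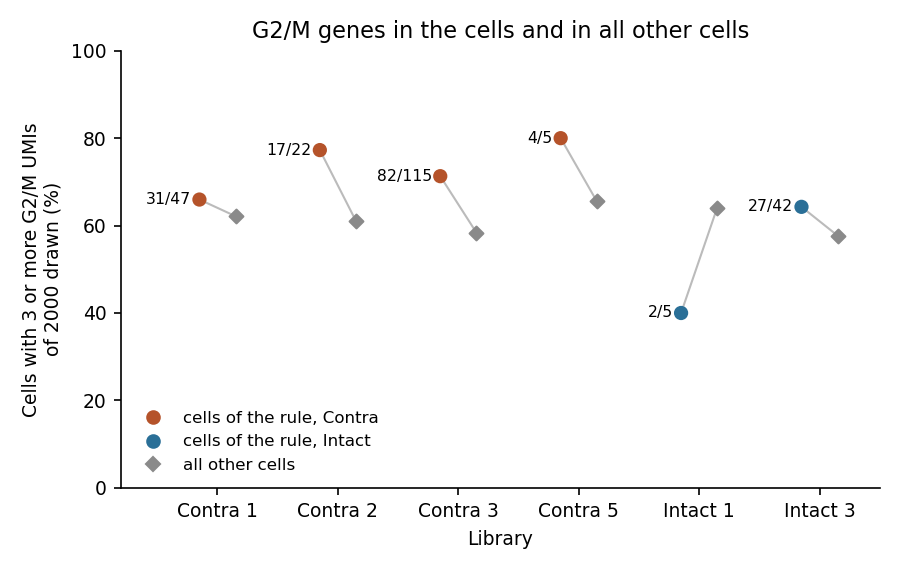
Percent of cells with at least 3 UMIs of a G2/M gene list among 2000 drawn, in the cells of the rule (coloured points, with cells that pass over cells tested) and in all other cells of the same library (grey diamonds). The cells lie above the other cells in 5 of 6 libraries, and Intact 1, with 2 of 5 cells, lies below.

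Cycling cells past S phase, polyploid cells and cells stuck together in pairs all carry a 4C DNA content, so G2/M genes were read in the cells. A cell counted if at least 3 of 2000 drawn UMIs came from a list of 59 symbols, 54 of which are in the gene list. The share was 65.96, 77.3, 71.3 and 80% of the cells in Contra 1, 2, 3 and 5, and 40% and 64.3% in Intact 1 and 3, the libraries with at least 5 cells of 2000 UMIs or more. Both Intact libraries lay below every Contra library, but Intact 1 rests on 2 of 5 cells and Contra 5 on 4 of 5. The means were 73.6 ± 6.27% in Contra (n = 4) and 52.1 ± 17.2% in Intact (n = 2), which differ by 21.5 points (exact permutation over libraries, 2-sided, p = 0.0667, the smallest this design allows). Without Intact 1 it was 9.35 points, and with 1000 UMIs drawn in place of 2000 it was -1.14 points, so no direction is given.

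Against the other cells of the same libraries, the share was 66.5 ± 14.3% in the cells and 61.5 ± 3.09% in all other cells (SD, n = 6 libraries), higher in the cells in 5 of 6 libraries. The mean difference of 4.98 points did not pass the test (exact sign-flip permutation, p = 0.469). With the 3 leading identifiers left out before the draw, an alternative chosen after the data were seen, it was 11.03 points (exact p = 0.25). With at least 2 UMIs of the list required, it was 12.3 points and passed (exact p = 0.0313), and with 1000 UMIs drawn it was -2.67 points. Pooled over libraries, 69.8% of 242 cells passed (exact 95% interval 63.6 to 75.5, counting error only and not the spread between libraries). Of these 242 cells, 115 came from Contra 3. The pooled share was 62.1% of all other cells, 62.7% of macrophage marker cells, 85.1% of T cell marker cells and 38.7% of erythroid marker cells. Without the draw the shares were 98.3% of the cells and 95.001% of all other cells. Expression of the list by single cells can come in part from free RNA, and 76.8% of the epidermal cells passed; the part of free RNA was not tested.

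Genes that differ between the groups within the cells were sought in the counts summed per library, over 4 Contra and 3 Intact libraries with at least 5 cells. No identifier passed an adjusted p of 0.05 in edgeR's quasi-likelihood test with Benjamini-Hochberg adjustment (0 of 3335 tested, 0.0%), nor in DESeq2 (0). At an unadjusted p under 0.05, edgeR had 93 identifiers, or 2.79%, and DESeq2 had 54. The smallest adjusted p was 0.134. The sums of Intact 1 and Intact 4 hold 48118 and 49330 UMIs, so that a single UMI is worth 20.8 CPM in Intact 1, and a count of 0 allows up to 62.3 CPM in Intact 1 and 60.8 CPM in Intact 4 (3 counts).

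Ranked by p, 4 of the first 10 identifiers that carry a symbol were histone genes, all higher in Contra, and none passed. H3C14 (AMEX60DD038934) stood at 229, 144, 143 and 8.88 CPM in Contra 1, 2, 3 and 5, and at 0, 9.49 and 0 CPM in Intact 1, 3 and 4 (log2 fold change 3.97 ± 0.70 SE, edgeR adjusted p = 0.134). H2AC20 (AMEX60DD035414) stood at 304, 375, 237 and 0 CPM in the same Contra libraries, and at 0, 14.2 and 0 CPM in the Intact libraries (4.14 ± 0.84, edgeR adjusted p = 0.286). For both, Contra 1, 2 and 3 lay above every Intact library while Contra 5 did not. H2BC4 (AMEX60DD009462) stood at 123, 111, 94.8 and 17.8 CPM in the Contra libraries, and at 41.6, 21.8 and 40.5 CPM in the Intact libraries (1.85 ± 0.44, edgeR adjusted p = 0.860). Without Contra 5 the first 2 passed (4.18, edgeR adjusted p = 0.000172, and 4.44, edgeR adjusted p = 0.000142). Without Intact 3 both were at 0 in the Intact libraries that remain, so no fold is given.

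The histone difference lay in few cells, counted over 17 identifiers with these 3 symbols after their values were seen. Of 2908 histone UMIs in the cells, 94.4% lay in the 26 cells with the most. Among all other cells the top 3361 of 33601 held 90.4%, so this concentration is not particular to these cells. At least 1000 CPM of histones was found in 11 of 259 cells, or 4.25%, close to the 4.67% of all other cells. These were 5 cells of Contra 1, 2 of Contra 2 and 4 of Contra 3, and none of Contra 5. None was found among the 56 Intact cells, 43 of which are from Intact 3; a count of 0 allows a share of up to 5.36%, which covers counting error only and not the spread between libraries. The 43 cells of Intact 3 had at most 370.5 CPM each. Summed, histones stood at 1129, 774, 593 and 62.2 CPM in the cells of Contra 1, 2, 3 and 5, and at 83.1, 78.8, 60.8 and 0 CPM in those of Intact 1, 3, 4 and 5. In all other cells of the same libraries they stood at 562, 408, 418 and 376 CPM in Contra and at 1202, 310.3, 425 and 399 CPM in Intact, where the groups overlap. Replication-dependent histone genes are known to be expressed mainly in S phase.

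**Figure D5:**
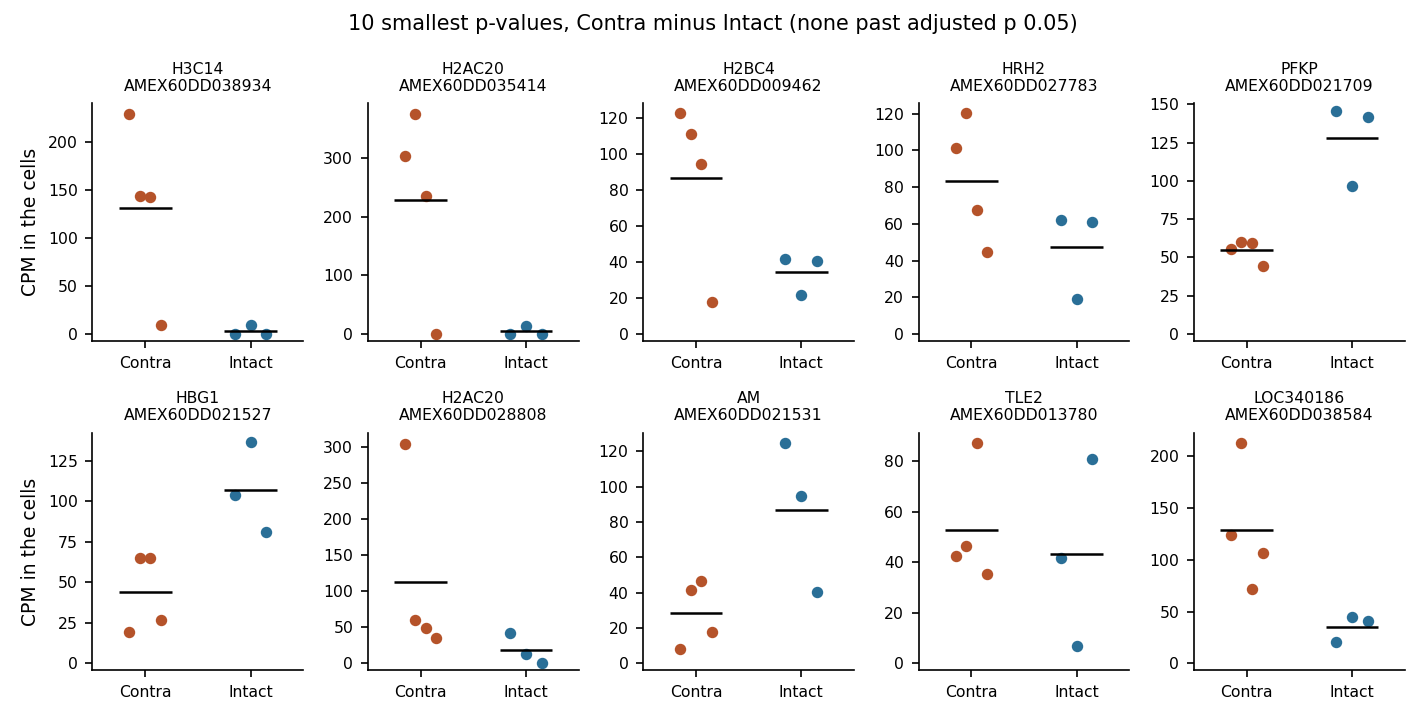
CPM in the cells for the first 10 identifiers by p that carry a symbol, by library, with 4 Contra and 3 Intact points and the group mean as a line. None passed an adjusted p of 0.05. In these libraries the groups do not overlap for PFKP, HBG1 and LOC340186, on few UMIs in the libraries with few cells. The 10 were chosen by p, and non-overlap was not counted over all 3335 identifiers, so it is not read as a group difference.

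Outside the histones, PFKP, a phosphofructokinase of glycolysis, stood at 55.2, 60.3, 59.5 and 44.4 CPM in Contra 1, 2, 3 and 5. It stood at 145, 96.8 and 142 CPM in Intact 1, 3 and 4. Contra 5 had 5 UMIs of it, and Intact 1 and Intact 4 had 7 each. Every Contra library lay below every Intact library of the fit (log2 fold change -1.02 ± 0.27 SE, edgeR adjusted p = 1.00). How many of all 3335 identifiers separate the groups in this way was not counted. HRH2, the H2 receptor for histamine, stood at 101, 121, 67.4 and 44.4 CPM in Contra and at 62.3, 18.98 and 60.8 CPM in Intact (1.63 ± 0.42, edgeR adjusted p = 1.00), and the groups overlapped, on 308 UMIs in Contra and 26 in Intact. Without Intact 3 its log2 fold change was 0.67. TLE2, a co-repressor, stood at 42.6, 46.3, 87.3 and 35.5 CPM in Contra and at 41.6, 6.64 and 81.1 CPM in Intact, where the groups overlap (2.13 ± 0.64), and without Intact 3 the fold change was 0.24. LOC340186 had 1.42 ± 0.43, on 1, 47 and 2 UMIs in Intact 1, 3 and 4. In Intact 5, left out of the fit, it stood at 323 CPM on 4 UMIs, above every Contra library.

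The other 2 were HBG1 (-1.45 ± 0.41), a globin, and AM (-1.60 ± 0.47), both lower in Contra with an edgeR adjusted p of 1.00. They stood at 118994 and 92253 CPM in erythroid marker cells. In all other cells HBG1 stood at 2555, 4262, 6978 and 14945 CPM in Contra 1, 2, 3 and 5, and at 17447, 7579, 17027 and 15013 CPM in Intact 1, 3, 4 and 5. In the cells it stood at 19.6, 64.9, 65.2 and 26.6 CPM in the Contra libraries, and at 104, 137, 81.1 and 80.7 CPM in the Intact libraries. In all other cells Contra 1, 2 and 3 lay below every Intact library and Contra 5 did not, and the part of erythroid RNA in the values of the cells was not tested.

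The mast cell lists held no gene past the threshold between Contra and Intact. None of the 3335 identifiers passed, and of the listed ones the granule list had 4 of 6 tested identifiers higher and 2 lower in Contra, amine handling 4 higher of 4, lipid mediators 3 lower of 3, receptor signalling 3 higher and 8 lower, and transcription factors 9 higher and 5 lower. Their median log2 fold changes were 0.18, 0.52, -0.33, -0.04 and 0.08, against 0.02 over all 3335. The counts of directions rest on 3 to 14 identifiers per list, and directions over all 3335 were not counted. No list was tested as a set, so these counts are not read as a shift of a list. SRGN averaged 2831 ± 224 CPM in Contra and 3133 ± 104 CPM in Intact, SLC18A2 332 ± 126 and 266 ± 126 CPM, and CD34 907 ± 88.0 and 954 ± 109 CPM (SD, n = 4 Contra and 3 Intact libraries).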

How the data were processed

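The deposited matrix holds raw UMI counts per gene and cell from the authors, for 60956 gene rows and 34149 cells of 8 libraries. Kallisto 0.48.0 and Seurat 4.2.0 are named in the submitters' processing notes. The genome build, annotation and use of strand are not given in the sources used here. The library of each cell came from its barcode prefix, and groups and replicate numbers from the library titles. Gene symbols are those of the authors' gene list, where 1098 identifiers occur on more than 1 row, and UMIs can be split between copies. The 289 cells under 500 genes were left out. The lowest gene number of a deposited cell is 450. No doublet caller was run, and doublets were not removed; the limits on collagen, keratin and endothelial genes, and an alternative without cells that carry 3 markers of another blood or pigment list, bear on them.

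The rule and lists were chosen with earlier results of these data known. Levels in the cells against other cells are descriptions with no test, because the cells were picked by their counts. Macrophage, T cell and erythroid marker cells had at least 3 markers of their list within the same limits. Counts were summed per library and compared with edgeR 4.0.16 (quasi-likelihood test, filterByExpr, TMM, R 4.3.3), with DESeq2 1.42.0 as an alternative, after a test on simulated counts. Shares were compared by exact permutation over libraries (Python 3.11.15, scipy 1.17.1). Named genes were list members with at least 20 CPM, the 25 leading identifiers, and the 10 smallest p-values with a symbol; others, such as the histone sums and the 36 cells under 5%, were chosen after their values were seen. Alternatives covered the filter, normalization, symbols required, depth drawn, list, replicate numbers and each replicate left out. Another 4 were added after the data were seen: all 8 libraries, no limits on other cell types, and 2 draws without the 3 leading identifiers.

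Same-numbered libraries were compared by the correlation of their deviations from the group means, 0.0738 for number 1 and 0.0777 for number 3. With 2 pairs these do not pair the samples. Some members of the lists are not reported here.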

Additional observations from a re-analysis of the deposited data

Results flagged for a closer look

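Of 46 groups of 4 libraries examined for a library far from the others, 4 were flagged, where chance flags about 1 in 20. The median depth of the cells in the Intact libraries had Intact 3 at 25800 UMIs, far above the other Intact libraries at 6192 to 7372.5. The median share of UMIs in the 3 leading identifiers had Contra 5 at 35.3%, above the other Contra libraries at 26.4 to 27.0%, on 5 cells. CPA3 stood at 12387 CPM in the cells of Contra 5, again on 5 cells, against 8634 to 9199.9 CPM in the other Contra libraries. H2AC20 (AMEX60DD028808) stood at 305 CPM in Contra 1, against 35.5 to 60.3 CPM in the other Contra libraries, from 265 UMIs.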

How the results depend on the processing

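The share difference kept its direction under all 16 alternatives and passed under none (p 0.171 to 0.543), and leaving out a library gave 0.135 to 0.641 points. With a replicate block over numbers 1, 3 and 5 it was 0.444 points (exact sign-flip p = 0.25). That is the smallest p this block allows, so it could not pass. The G2/M difference, Contra minus Intact, was reversed with 1000 UMIs drawn (-1.14 points). With a library left out it was 9.35 to 33.6 points. The replicate block over numbers 1 and 3 gave 16.5 points (exact sign-flip p = 0.5), again the smallest p the block allows. Leaving out TUBB4B gave 7.24 points and requiring 2 UMIs gave 1.36 points. For the cells minus all other cells, 1000 UMIs drawn gave -2.67 points (reversed), 2 UMIs required gave 12.3 points (exact p = 0.0313) and leaving out a library gave 2.73 to 10.8. The count of genes past the threshold, 0 in the analysis as reported, was 13 with no filter on low counts (38569 tested), 9 with the replicate block, 20 with all 4 symbols required and 10 in libraries with at least 10 cells, and 0 to 6 leaving out a library (2 without Contra 5, 6 without Intact 3). The settings with 4 symbols and 10 cells leave Intact 3 alone in its group, assumed to vary like Contra. Of 138 values of the 10 named identifiers under alternatives, none was reversed and some passed the threshold. The 10 were picked by p from these same libraries, so a kept direction is no separate check. An identifier that a setting filtered out has no value there, as H3C14 without Contra 1, 2 or 3. With the replicate block, H3C14 (3.92) and H2AC20 (AMEX60DD035414, 4.08) passed, as did H2BC4 (1.89), H2AC20 (AMEX60DD028808, 2.11) and TLE2 (2.98). In the block fit only numbers 1 and 3 occur in both groups. Contra 2, Contra 5 and Intact 4 are each taken up by their own term and do not bear on the difference. Passing there is thus no check against Contra 5. With a term for numbers 1 and 3, none of these identifiers passed (edgeR adjusted p 0.0609 and 0.394 for the first 2). Depth limits the Intact side: 56 cells in all, 2 to 6 in each of 3 libraries.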
